A study of Mus musculus with 6 samples.

Results

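The genes described here encode the CD3 chains of the T cell receptor complex, the small adaptors that carry activating signals for receptors of innate lymphocytes, and the kinases that act first on them. They are Cd3d, Cd3e, Cd3g, Cd247, Fcer1g, Tyrobp, Hcst, Zap70, Syk and Lck. They were chosen by symbol, and all 10 were found among the 24091 genes of the count table and passed the filter on low counts. The libraries hold mRNA of group 1 innate lymphoid cells (ILC1) from the livers of C57BL/6 mice. The 3 AML libraries came from mice given C1498 cells, a leukaemia line of the same strain, into a vein, and the 3 healthy libraries from mice that received none. All were taken at day 14. The gate used for ILC1, the sex of the mice and whether each library was 1 animal or a pool are not stated in the labels. The p-values therefore measure the spread between libraries, which may be technical. The comparison asks how leukaemia in the host goes with the RNA of liver ILC1.

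CD3 chains and adaptors have short cytoplasmic tails that carry an immunoreceptor tyrosine-based activation motif (ITAM), a pair of tyrosines each followed at a fixed distance by leucine or isoleucine. A Src-family kinase, Lck in T cells, phosphorylates these tyrosines, and the tandem SH2 domains of ZAP-70 or SYK then dock on them. In T cells the CD3 gamma, delta and epsilon chains and the zeta chain (Cd247) form the signalling part of the T cell receptor. In NK cells and ILC1, which lack that receptor, zeta and the Fc receptor gamma chain (Fcer1g) serve NKp46, the gamma chain also serves CD16, and DAP12 (Tyrobp) serves activating Ly49 and NKG2C receptors. DAP10 (Hcst) serves NKG2D and carries no ITAM but a YxxM motif that recruits phosphoinositide 3-kinase.

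The coding bases of these motifs are shown because the adaptors signal through them. They were read from GENCODE M21 transcripts (GRCm38, the mm10 assembly), 5′ to 3′ on the coding strand, as matches to a tyrosine, any pair of residues and leucine or isoleucine, repeated after 6 to 8 residues. Capitals mark the codons of the tyrosines and of the leucine, isoleucine or methionine that ends each part. The CD3 chains, Fcer1g and Tyrobp each held 1 ITAM and Cd247 held 3. In Cd247 the second has 8 residues between its parts, and every other ITAM has 7. Each ITAM is spread over 2 exons, so its coordinates span an intron. Hcst held none. Zap70, Syk and Lck, which act on the motif, also held none. The letters YxxM are short and also matched in Cd3g, Zap70, Syk and Lck, where they are not shown, and only the motif of Hcst is printed.
Cd3g ITAM (exons 5 and 6, chr9:44970735-44971268, minus strand): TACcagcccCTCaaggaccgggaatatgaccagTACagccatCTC
Cd3d ITAM (exons 4 and 5, chr9:44986095-44986311, plus strand): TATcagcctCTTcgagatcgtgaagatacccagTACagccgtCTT
Cd3e ITAM (exons 7 and 8, chr9:44999549-45000440, minus strand): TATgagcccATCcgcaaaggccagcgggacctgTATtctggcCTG
Cd247 ITAM 1 (exons 3 and 4, chr1:165856451-165857454, plus strand): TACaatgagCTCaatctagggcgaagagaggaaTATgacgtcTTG
Cd247 ITAM 2 (exons 5 and 6, chr1:165858473-165859260, plus strand): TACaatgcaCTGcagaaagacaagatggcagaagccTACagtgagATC
Cd247 ITAM 3 (exons 7 and 8, chr1:165859819-165861042, plus strand): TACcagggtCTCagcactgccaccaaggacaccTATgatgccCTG
Fcer1g ITAM (exons 4 and 5, chr1:171229889-171230072, minus strand): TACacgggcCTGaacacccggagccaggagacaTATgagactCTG
Tyrobp ITAM (exons 4 and 5, chr7:30415670-30417382, plus strand): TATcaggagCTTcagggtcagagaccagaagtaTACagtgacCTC
Hcst YxxM (exon 4, chr7:30417821-30417832, minus strand): TACatcaacATG

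Total counts ran from 45135093 to 51284691 per library. At this depth 3 counts, the limit that 0 reads allow, equal 0.0574 to 0.0642 CPM (the usual depth-scaled count, on TMM-scaled library sizes). This limit covers counting error only. The ILC1 markers were present, with a summed level of 5542 to 6262 CPM in AML and 5852 to 6058 CPM in healthy libraries over 9 of 10 listed genes. Conventional NK cell markers summed to 47.7 to 65.1 CPM in AML and 36.6 to 50.5 CPM in healthy libraries. Ncr1, the most abundant of the ILC1 markers, encodes NKp46 and is expressed by NK cells too, so these sums do not measure shares of cells. NKT cell markers summed to 7.76 to 13.4 CPM in AML and 9.39 to 12.4 CPM in healthy libraries. Most of the NKT sum was Zbtb16, at 7.59 to 12.3 CPM in AML and 9.06 to 11.7 CPM in healthy libraries. The receptor gene of that list, Trav11, had no row in the count table. Of 8 listed gamma delta T cell genes 3 had a row in the count table, and the receptor genes of that list had none. Sox13 and Il17a had 0 reads in all libraries, and Blk had 14 reads in healthy 2 and 0 in the others. The list therefore cannot show whether such cells were absent. Of the T cell list, 12 of 15 genes had a row in the count table. Their sum was 363 to 453 CPM in AML and 361 to 421 CPM in healthy libraries, most of it from Ubash3a, Bcl11b and Cd28. The T cell receptor constant genes Trac, Trbc1 and Trbc2 are not analysed here. The coreceptor gene Cd4 stood at 2.52 to 5.51 CPM in AML and 2.88 to 7.71 CPM in healthy libraries. Of the same list, Icos stood at 35.05 to 54.7 CPM in AML and 35.4 to 38.3 CPM in healthy libraries. Lef1 stood at 12.3 to 20.96 CPM in AML and 13.4 to 22.2 CPM in healthy libraries. Cd5, a T cell surface receptor, stood at 0.00 to 0.23 CPM in AML and 0.10 to 0.39 CPM in healthy libraries. Themis stood at 0.00 to 0.42 CPM in AML libraries and at 0 reads in every healthy library. The 15 monocyte and macrophage markers summed to 734, 726 and 678 CPM in AML 1 to 3, against 593, 74.1 and 67.1 CPM in healthy 1 to 3. Healthy 1 thus stood apart from the other healthy libraries in this sum, mainly by Lyz2. Not every marker followed, as C1qa, C1qb, C1qc and Clec4f were lowest of all 6 libraries in healthy 1. C1qb had 11.6, 18.8 and 38.8 CPM in AML 1 to 3, against 2.41, 3.82 and 4.22 CPM in healthy 1 to 3. Of 13 tested markers 7 were higher in AML at an unadjusted edgeR quasi-likelihood p below 0.05, against 5.08% of all genes tested. Marker RNA is reported beside the members below, because in bulk RNA fewer cells of a type and less RNA per cell cannot be told apart.

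The CD3 chain genes differed widely in level within the same libraries. Cd3g, the gamma chain, had 951, 1293 and 1176 CPM in AML 1 to 3, against 1646, 1459 and 1317 CPM in healthy 1 to 3. Every AML library was below every healthy library. Cd3d, the delta chain, had 14.1, 23.6 and 27.2 CPM in AML 1 to 3, against 29.03, 22.3 and 22.4 CPM in healthy 1 to 3. The groups overlapped, and AML 1 was the lowest of the 6 libraries. Cd3e, the epsilon chain, had 6.20, 19.9 and 39.6 CPM in AML 1 to 3, against 10.5, 22.02 and 17.9 CPM in healthy 1 to 3. The groups overlapped here too, and AML 3 alone lay above all healthy libraries while AML 1 was the lowest. AML 1 also stood apart by neutrophil markers, of which 9 of 10 had reads in it and Ly6g had 0 reads in all libraries. That list summed to 147, 9.65 and 15.3 CPM in AML 1 to 3, against 13.4, 0.664 and 6.42 CPM in healthy 1 to 3, and its part in the levels of the CD3 genes was not tested.

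**Figure D1:**
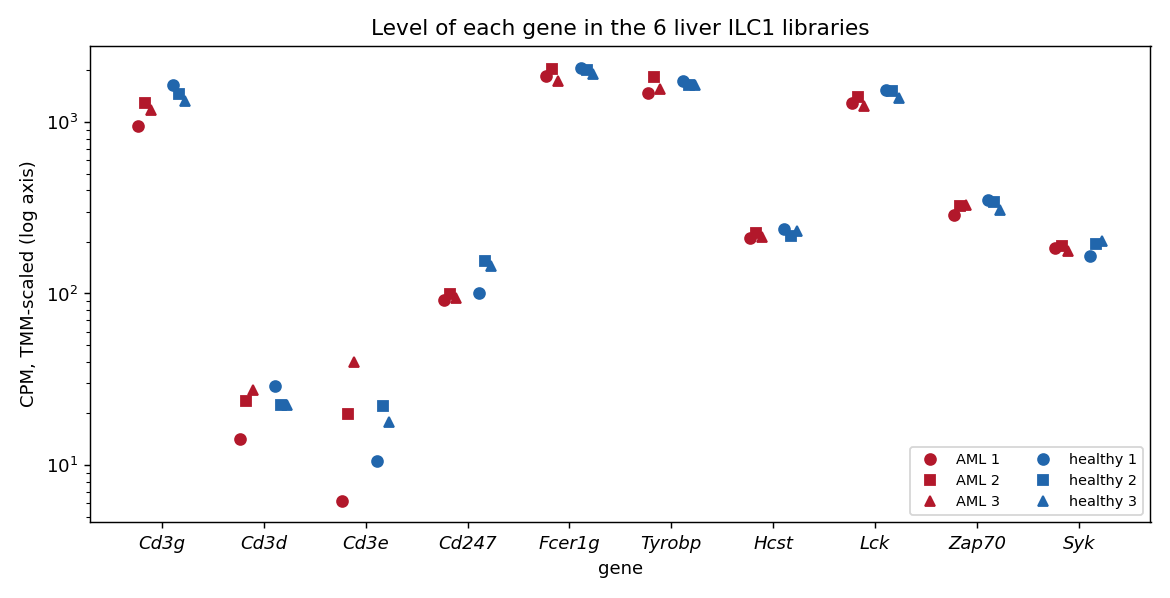
Level of the 10 genes in CPM on TMM-scaled library sizes (log axis), 1 point per library, AML in red and left of healthy in blue, with symbols for libraries 1, 2 and 3. Cd3g is at 951 CPM or more in all 6 libraries, while Cd3d and Cd3e are at 39.6 CPM or less in each.

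Levels between genes were compared per kilobase of the gene length given in the count table. Per kilobase, Cd3g exceeded Cd3d by 88.0, 71.4 and 56.3 times in AML 1 to 3, against 73.9, 85.5 and 76.8 times in healthy 1 to 3. It exceeded Cd3e by 215, 91.3 and 41.7 times in AML 1 to 3, against 220.01, 93.1 and 103 times in healthy 1 to 3. The excess of Cd3g was thus present in all 6 libraries. In level per kilobase Cd3g ranked 30 of 12469 genes tested, with Cd3d at 4075 and Cd3e at 4737. The size of the excess depends on the length used. With the union of GENCODE M21 exons, which is 3.27 kb for Cd3g against a deposited 1.02 kb, it was 24.0 to 37.5 times over Cd3d and 37.02 to 195 times over Cd3e. The ratio of Cd3d to Cd3e was 0.740 to 2.98 with the deposited lengths and 1.54 to 6.21 with the exon union, so whether Cd3d exceeded Cd3e in every library depended on the length.

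**Figure D2:**
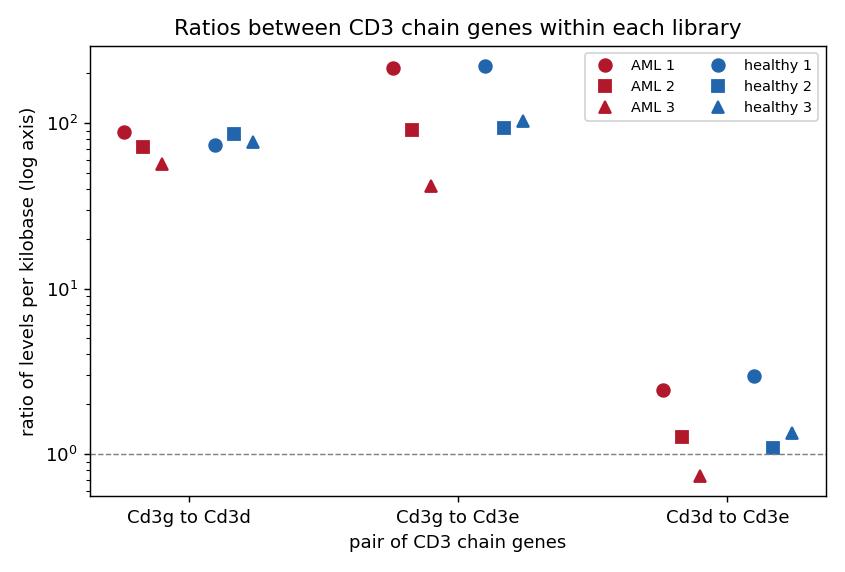
Ratio of levels per kilobase between CD3 chain genes within each library (log axis), 1 point per library, AML in red and left of healthy in blue. Both ratios of Cd3g are 41.7 or more in all 6 libraries, and with the deposited lengths the ratio of Cd3d to Cd3e runs from 0.740 to 2.98 across the line at 1.

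Between the groups these ratios did not separate. The log2 ratio of Cd3g to Cd3d was 6.14 ± 0.32 in AML and 6.30 ± 0.11 in healthy libraries (per kilobase, SD, n = 3 each), a difference of -0.15 with a two-sided exact permutation p of 0.5. For Cd3g to Cd3e it was 6.55 ± 1.19 in AML and 7.00 ± 0.68 in healthy libraries, a difference of -0.46 with an exact p of 0.4. For Cd3d to Cd3e the difference was -0.30, with an exact p of 0.6. With 3 libraries against 3 this exact test cannot go below p = 0.1. Over the 8 ratios compared here, the adjusted p was 0.9 for each. Without AML 3 the differences for Cd3g to Cd3d and Cd3g to Cd3e were 0.013 and 0.13, so their direction rested on that library.

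Cd3e varied most of all members, 6.39-fold across the AML libraries and 2.09-fold across the healthy ones. Cd8a, the T cell coreceptor chain that some innate cells and dendritic cells also express, had 3.04, 8.84 and 16.5 CPM in AML 1 to 3, against 3.38, 10.5 and 6.61 CPM in healthy 1 to 3. Its order over the 6 libraries was that of Cd3e, with AML 3 highest and AML 1 lowest. Its partner Cd8b1 stayed at 0.00 to 0.52 CPM in AML and 0.12 to 0.36 CPM in healthy libraries, and Cd6, a T cell adhesion receptor, at 0.00 to 1.41 CPM in AML and 0.28 to 1.04 CPM in healthy libraries. The part of other cells in the level of Cd3e was not tested.

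Cd3g, Cd3d and Cd3e are neighbours on mouse chromosome 9 (mm10). Cd3g lies at chr9:44969572-44980431 on the minus strand and Cd3d at chr9:44981786-44987052 on the plus strand, with 1354 bases between their starts. Cd3e lies at chr9:44998743-45009590 on the minus strand, 11690 bases beyond Cd3d. The 250 bases before each RefSeq start are shown because these neighbours differ so much in level. They come from RefSeq (GRCm38.p6), 5′ to 3′ on the strand of the gene, and 9 of the 10 members had such a window in that table. Capitals mark matches on either strand, none of which overlapped. The motifs searched were the TATA box, spelled out as TATAAA, the core bound by ETS factors, GGAAGT, the core bound by RUNX factors, TGTGGT, the E-box bound by helix-loop-helix factors, CANNTG, and the core bound by T-box factors such as T-bet, GGTGTG.
Cd3g (chr9:44980432-44980681, minus strand): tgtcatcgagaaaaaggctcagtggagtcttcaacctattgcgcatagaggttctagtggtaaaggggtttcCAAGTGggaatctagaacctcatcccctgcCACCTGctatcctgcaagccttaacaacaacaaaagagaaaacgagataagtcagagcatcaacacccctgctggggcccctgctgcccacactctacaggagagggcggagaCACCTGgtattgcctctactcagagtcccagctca
Cd3d (chr9:44981536-44981785, plus strand): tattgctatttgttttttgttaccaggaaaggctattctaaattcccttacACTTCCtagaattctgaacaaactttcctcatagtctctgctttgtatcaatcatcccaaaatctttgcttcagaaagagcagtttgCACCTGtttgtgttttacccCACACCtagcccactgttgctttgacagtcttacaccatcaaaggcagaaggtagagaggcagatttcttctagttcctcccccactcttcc
Cd3e (chr9:45009612-45009861, minus strand): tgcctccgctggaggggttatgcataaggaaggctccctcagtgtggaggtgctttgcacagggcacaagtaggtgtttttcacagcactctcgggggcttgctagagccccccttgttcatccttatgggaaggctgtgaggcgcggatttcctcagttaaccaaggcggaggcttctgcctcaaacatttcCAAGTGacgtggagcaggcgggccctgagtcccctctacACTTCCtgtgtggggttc

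Cd3g held 3 E-box matches and none of the other motifs. Cd3d held 1 ETS, 1 E-box and 1 T-box match, and Cd3e held 1 ETS and 1 E-box match. Of 32851 promoter windows of this length, 66.2% held an E-box, 19.7% an ETS core, 16.3% a T-box core, 14.0% a RUNX core and 12.4% a TATA box. The matches describe these letters and are not binding sites.

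Among the adaptors, Fcer1g and Tyrobp were the most abundant members. Fcer1g had 1858, 2038 and 1741 CPM in AML 1 to 3, against 2075, 1997 and 1892 CPM in healthy 1 to 3. Tyrobp had 1472, 1823 and 1564 CPM in AML 1 to 3, against 1735, 1646 and 1641 CPM in healthy 1 to 3. The groups overlapped for both genes. Per kilobase they ranked 15 and 16 of all genes tested, and Fcer1g exceeded Tyrobp in 3 of 6 libraries. With the exon-union length the ratio of Fcer1g to Tyrobp was 0.850 to 0.963, so Tyrobp was then the higher in all 6. Myeloid cells also express both genes. Healthy 1 had a Lyz2 level of 459 CPM, against 35.03 and 33.1 CPM in healthy 2 and 3. It also had the highest Fcer1g of all 6 libraries, within 1.10-fold of healthy 2 and 3. Its Tyrobp was the highest of the healthy libraries, within 1.06-fold of the others. The part of myeloid cells in the levels of Fcer1g and Tyrobp was not tested.

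Hcst, which encodes DAP10, had 209.6, 226 and 215 CPM in AML 1 to 3, against 238, 217 and 232 CPM in healthy 1 to 3. The groups overlapped. Tyrobp (chr7:30413788-30417579, plus strand) and Hcst (chr7:30417712-30419854, minus strand) face each other with 132 bases between their ends. Tyrobp exceeded Hcst per kilobase by 5.48 to 6.29 times in AML and 5.52 to 5.94 times in healthy libraries. The log2 difference of that ratio was 0.023, with an exact permutation p of 0.9.

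Cd247, which encodes the zeta chain with its 3 ITAMs, stood below the other adaptors per kilobase in every library. It had 91.6, 98.7 and 93.6 CPM in AML 1 to 3, against 100.5, 155 and 144 CPM in healthy 1 to 3. Every AML library was below every healthy library, and healthy 1 lay next to the AML libraries. Per kilobase Fcer1g exceeded Cd247 by 143, 145 and 131 times in AML 1 to 3, against 145, 90.6 and 92.3 times in healthy 1 to 3. The log2 difference of this ratio was 0.39, with an exact permutation p of 0.3, and 0.61 without healthy 1. Part of Cd247 (chr1:165788681-165871153, plus strand) overlaps Pou2f1 on the minus strand from 165865154 to 165871153, and the libraries carry no strand. Pou2f1 had 23.0 to 26.3 CPM in AML and 19.7 to 23.9 CPM in healthy libraries, and reads of the shared stretch cannot be told apart.

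Lyz2, the myeloid lysozyme and most abundant of the monocyte and macrophage markers, had 503, 567 and 434 CPM in AML 1 to 3, against 459, 35.03 and 33.1 CPM in healthy 1 to 3. The 4 libraries with the highest Lyz2 were the 4 with the lowest Cd247. With log2 Lyz2 as a covariate the log2 fold change of Cd247 was -0.08 ± 0.12 (SE). For Cd3g the same covariate gave -0.55 ± 0.17 (edgeR quasi-likelihood adjusted p = 0.646), against -0.37 ± 0.13 without it. Healthy 1 had the lowest Cd247 of the healthy libraries, so leaving it out was bound to widen the difference. Without it the log2 fold change of Cd247 was -0.66 ± 0.08 (edgeR quasi-likelihood adjusted p = 0.0225). Leaving out AML 1 as well gave -0.64 ± 0.09 (edgeR quasi-likelihood adjusted p = 0.00698). Over all genes 89 of 12766 were called without healthy 1 and 444 of 12555 without both, against 0 of 12469 with all libraries. The adjusted p of Cd247 ranged from 0.00698 to 0.879 over all alternatives. Lyz2 was high in all 3 AML libraries, so the covariate and the group largely overlap, and the part of myeloid RNA in the Cd247 difference was not tested.

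**Figure D3:**
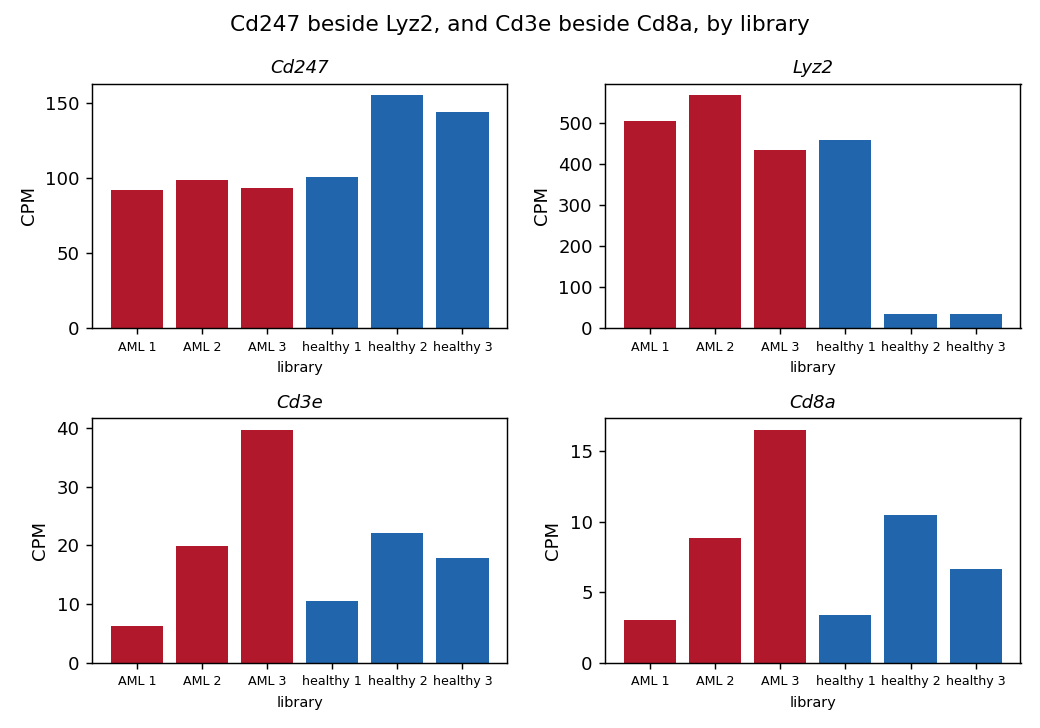
Bars give CPM of Cd247, Lyz2, Cd3e and Cd8a in each library, AML in red left of healthy in blue, with each axis starting at 0. Healthy 1 has the Lyz2 level and nearly the Cd247 level of the AML libraries, and AML 3 is highest for both Cd3e and Cd8a.

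Of the kinases, Lck, which phosphorylates ITAMs in T cells, was the most abundant. It had 1298, 1406 and 1241 CPM in AML 1 to 3, against 1527, 1509 and 1377 CPM in healthy 1 to 3. The groups overlapped, as AML 2 lay above healthy 3. Zap70 had 287, 324 and 326 CPM in AML 1 to 3, against 349, 339 and 305 CPM in healthy 1 to 3. Syk had 185, 188 and 176 CPM in AML 1 to 3, against 166, 193 and 201 CPM in healthy 1 to 3. The groups overlapped for both of these kinases, which dock on phosphorylated ITAMs.

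Per kilobase Syk stood at 0.185 to 0.221 of Zap70 in AML and 0.163 to 0.226 in healthy libraries, so Zap70 was the higher in all 6. The log2 difference of that ratio was 0.06, with an exact permutation p of 0.9. Lck exceeded Zap70 by 4.07 to 4.84 times per kilobase in AML and 4.68 to 4.83 times in healthy libraries, with a log2 difference of -0.08 and an exact p of 0.5. Without AML 3 that difference was -0.0057.

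From the highest to the lowest level per kilobase of deposited length the order was Fcer1g, Tyrobp, Cd3g, Lck, Hcst, Zap70, Cd247, Syk, Cd3d and Cd3e. The ranges of neighbours overlapped within both groups for Fcer1g and Tyrobp, for Lck and Hcst, and for Cd247 and Syk. Syk and Cd3d overlapped in healthy libraries, and Cd3d and Cd3e in AML libraries. The other neighbours did not overlap in either group. The order depended on the length. With the exon union Tyrobp averaged 2428 CPM per kilobase in AML and 2510.2 in healthy libraries, above Fcer1g at 2150 in AML and 2274 in healthy libraries. Lck, at 449 in AML and 502 in healthy libraries, was then above Cd3g, at 349 in AML and 451 in healthy libraries. With the deposited length the mean level of Cd3g per kilobase was 1122 ± 171 in AML and 1451 ± 163 in healthy libraries (SD, n = 3 each).

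In the test of AML against healthy, 0 of the 10 members passed an adjusted p of 0.05, and 0 of 12469 genes did (0%, edgeR quasi-likelihood test). Before adjustment 1102 genes had a p below 0.05. DESeq2 called 143 genes, the edgeR likelihood ratio test 100 and limma-voom 0, none of them a member. At an unadjusted p below 0.05, 2 members were lower in AML, against 3.75% of all genes tested, and 0 members were higher, against 5.08%. The same 2, Cd247 and Cd3g, had every AML library below every healthy library, against 7.34% of all genes, and 0 had every AML library above, against 8.2%. The median log2 fold change of the members was -0.08, with 9 of 10 negative, beside 0.01 over all genes, of which 48.0% were negative.

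For Cd247 the log2 fold change and its SE were -0.49 ± 0.15, the unadjusted p 0.0125 and the adjusted p 0.469. Cd3g had -0.37 ± 0.13, with an unadjusted p of 0.0214 and an adjusted p of 0.495. Without both healthy 1 and AML 1 the value of Cd3g was -0.17. Lck had -0.16 ± 0.08, with an adjusted p of 0.569. Fcer1g, Zap70, Hcst, Tyrobp and Syk had log2 fold changes between -0.08 and -0.03, each with an adjusted p of at least 0.739. Cd3d had -0.18 ± 0.24, and 0.049 without AML 1. Cd3e had 0.38 ± 0.58, and -0.36 without AML 3. In the authors' deposited table the log2 fold changes of Cd247 and Cd3g were -0.49 and -0.36, with adjusted p-values of 0.0974 and 0.353. Those p-values stand beside a likelihood ratio in a table of 9769 rows, so they are not like the quasi-likelihood values above. The edgeR likelihood ratio test over 12469 genes gave adjusted p-values of 0.163 for Cd247 and 0.378 for Cd3g.

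**Figure D4:**
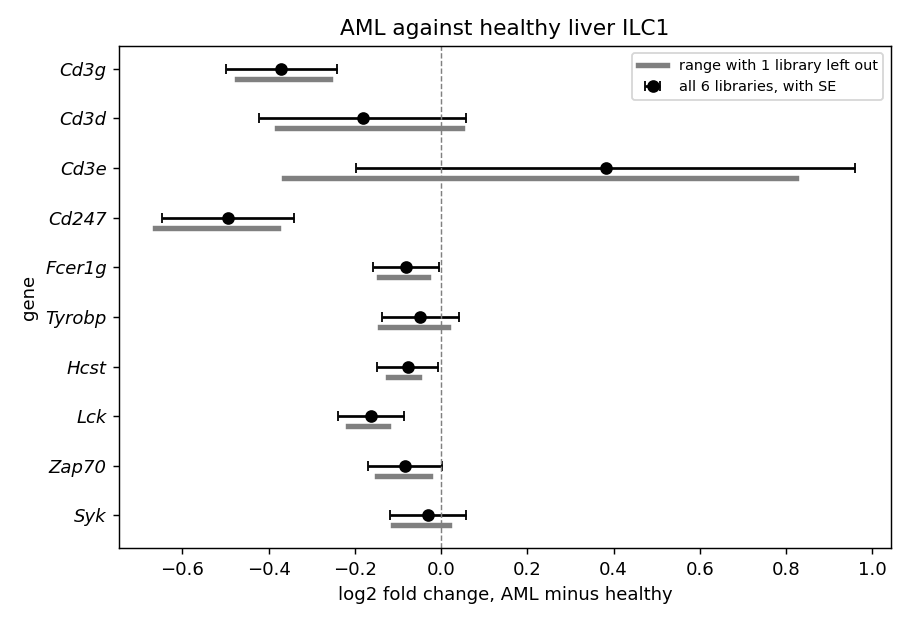
Points give the log2 fold change of each gene, AML minus healthy, and bars its SE. Grey lines give the range when each library is left out in turn. Cd247 and Cd3g stay below 0 throughout, as do Lck, Fcer1g, Hcst and Zap70, and the range of Cd3e runs from -0.36 to 0.82.

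Among the 5 genes whose levels over the 6 libraries were most like those of Cd3g were Cd63, a tetraspanin, Pygl, the liver form of glycogen phosphorylase, Zfp386 and Atmin. Likeness was the root mean square difference of centred log2 CPM over 6 libraries, among 8343 genes with a mean of at least 10 CPM. It was 0.051 for Cd63 and 0.094 for Atmin, where Cd3g itself deviated from its own mean by 0.25.

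Other genes of the pathway were read from lists by role, of which 100 genes were tested. None passed an adjusted p of 0.05. At an unadjusted p below 0.05, 11 were higher, against 5.08% of all genes tested, and 4 lower, against 3.75%, so the lower count was near the share over all genes. Their log2 fold changes had a median of -0.0012, and 50 of 100 were negative. Of the 11 higher genes, 10 were among 24 tested genes of a list written for receptors that signal with these adaptors. Whether each receptor of that list uses them was not tested. The median log2 fold change of the list was 0.53. The list also holds receptors of myeloid and dendritic cells, so this median does not describe lymphocyte receptors alone. Klrk1, Klrc2 and Ncr1 had log2 fold changes of 0.24, 0.39 and 0.20, against 1.54 for Fcgr4 and 2.46 for Clec4n. Klrk1, which encodes NKG2D, the receptor of DAP10, had 1390, 1517 and 1586 CPM in AML 1 to 3, against 1213, 1243 and 1352 CPM in healthy 1 to 3. Klrc2, which encodes NKG2C, a partner of DAP12, had 82.5, 104 and 115 CPM in AML 1 to 3, against 80.9, 70.4 and 78.4 CPM in healthy 1 to 3. The AML libraries were all above the healthy ones for both genes, as for 8.2% of all genes tested. The same held for Ncr1, which encodes NKp46, at 1558 to 1813 CPM in AML and 1458 to 1552 CPM in healthy libraries. Of the 24 receptors 5 had a negative log2 fold change, among them Klrb1c, Fcgr3 and Klrb1a at -0.17, -0.17 and -0.15. The groups overlapped for Klrd1, at 1004 to 1424 CPM in AML and 1126 to 1197 CPM in healthy libraries. Klrk1, Klrc2, Klrb1c, Fcgr3, Klrb1a and Klrd1 were named after their values were seen. Klrb1f, of the NKR-P1 family, was the other lymphocyte receptor among the 10.

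The remaining receptors among the 10 were Fcgr4, Fcgr1, Trem2, Siglech, Clec4e and Clec4n, which myeloid cells and dendritic cells express. Those with the smallest p in the list were Siglech, Clec4n and Fcgr4. Siglech had 3.25, 0.804 and 2.61 CPM in AML 1 to 3 and 0 reads in every healthy library. Clec4n, which encodes dectin-2, had 2.03, 1.24 and 3.01 CPM in AML 1 to 3, against 0.486, 0.422 and 0.228 CPM in healthy 1 to 3. Fcgr4 had 8.43, 5.74 and 5.38 CPM in AML 1 to 3, against 3.57, 1.11 and 2.06 CPM in healthy 1 to 3. The monocyte and macrophage markers summed to 678 to 734 CPM in AML and 67.1 to 593 CPM in healthy libraries, and their part in these values was not tested.

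In the downstream lists the counts at an unadjusted p below 0.05 stand against 3.75% lower and 5.08% higher over all genes. Of 16 adaptors and scaffolds 2 were lower and 0 higher, with a median log2 fold change of -0.01. Sh2d2a, the adaptor TSAd that binds Lck, measured 518 ± 28.4 CPM in AML and 608 ± 39.2 CPM in healthy libraries (SD, n = 3 each). Lat2, the linker NTAL, measured 338 ± 13.9 CPM in AML and 384 ± 12.0 CPM in healthy libraries, and Sh3bp2, a SYK-binding adaptor, measured 239.6 ± 28.9 CPM in AML and 198 ± 23.6 CPM in healthy libraries. Of 19 phospholipase, exchange factor and relay genes, 1 was lower and 1 higher. These were Vav1, an exchange factor of lymphocytes, at 370.4 ± 23.9 CPM in AML and 431 ± 9.12 CPM in healthy libraries, and its relative Vav2, at 14.7 ± 1.79 CPM in AML and 8.45 ± 2.71 CPM in healthy libraries. Pik3r1 had the next smallest p, with a log2 fold change of -0.39 ± 0.20.

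Of 20 inhibitors, phosphatases and ubiquitin ligases 1 was lower and 0 higher. This was Sh2d1b1, the adaptor EAT-2, at 47.2 ± 3.76 CPM in AML and 56.7 ± 5.16 CPM in healthy libraries (SD, n = 3 each). Lax1 and Pag1, membrane adaptors that restrain receptor signals, had log2 fold changes of -0.15 ± 0.07 and -0.31 ± 0.14. Among 14 Src, Tec and other kinases 0 were lower or higher, and those with the smallest p included Fyn and Fgr, with log2 fold changes of -0.23 ± 0.12 and 0.18 ± 0.11. Among 7 activators of Src kinases and coreceptors 0 were lower or higher, and the smallest p belonged to Cd2, Unc119 and Cd8a, at -0.16 ± 0.09, -0.07 ± 0.08 and 0.47 ± 0.61.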

How the data were processed

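The authors deposited a table of raw read counts per gene with gene lengths, used here, and a table of their own comparison. From their comparison only the log2 fold change and the p-value and adjusted p-value, which per the file headers stand beside a likelihood ratio, were used, and 6 columns of values per library were not. Per the submitters' processing notes the tools included edgeR 3.28.1, HTSeq 0.6.0, STAR 2.6.0 and bcl2fastq 2.18.0.12, with builds mm10 and hg19. For the counting options, strand and overlap rules included, no source used here gives a value. Per the labels' protocols, poly(A) RNA was amplified with a SMART-Seq kit and sequenced without strand information.

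All genes were fitted together with the edgeR 4.0.16 quasi-likelihood test (R 4.3.3, TMM, filterByExpr at a minimum count of 10, group only), which was tested on simulated data. The p-values were two-sided and adjusted over 12469 genes by the Benjamini-Hochberg method, with a threshold of 0.05. SE is the size of the log2 fold change over the square root of the F statistic. Ratios were log2 ratios of counts within a library, compared by an exact permutation test over 3 against 3 libraries. Alternatives were other size factors and filters, DESeq2 1.42.0, the likelihood ratio test, limma-voom (limma 3.58.1), the replicate block, Lyz2 as a covariate, and libraries left out. For ratios they were an offset of 0.5, group sums, the replicate block and libraries left out. The exon-union length was added after the data were seen.

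The members, lists and alternatives were chosen with earlier results of these data known. Besides the members, the named genes were to be the 3 with the smallest p in each pathway list, the most abundant marker of each list reported and the 5 most like Cd3g. Some genes under this rule are not reported here. Other genes were named after their values were seen.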

Additional observations from a re-analysis of the deposited data

How the results depend on the processing

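The count of genes called, 0 in the edgeR quasi-likelihood test, was 1 with upper quartile factors, 2 with total counts only, 2 with no filter, 2 with at least 1 CPM in all libraries, 143 by DESeq2, 100 by the likelihood ratio test, 444 without both healthy 1 and AML 1, and 0 to 147 with 1 library left out (147 without AML 1, 89 without healthy 1, 0 without any other). The cause was not tested. Cd3g, Cd247, Lck, Fcer1g and Hcst kept a negative log2 fold change under all 17 alternatives. Cd247 passed the threshold under 2 of them, both without healthy 1, the healthy library with the lowest Cd247. Signs turned, with no call, for Cd3d (0.19 without both healthy 1 and AML 1, -0.38 to 0.049 with 1 library left out), Cd3e (-0.36 to 0.82 with 1 left out), Tyrobp (0.015 with total counts only, 0.042 without both, -0.14 to 0.016 with 1 left out), Zap70 (0.013 without both) and Syk (0.032 with total counts only, 0.15 with Lyz2, -0.11 to 0.019 with 1 left out). With 1 library left out the log2 difference ran from -0.31 to 0.013 for Cd3g to Cd3d, -1.06 to 0.13 for Cd3g to Cd3e, -0.75 to 0.13 for Cd3d to Cd3e, -0.034 to 0.065 for Tyrobp to Hcst, -0.089 to 0.0012 for Fcer1g to Tyrobp and -0.064 to 0.17 for Syk to Zap70, which was -0.13 without both. The sign turned without AML 3 for Cd3e, for the 3 ratios between CD3 genes and for Fcer1g to Tyrobp, and without AML 1 for Cd3d, Tyrobp and Syk to Zap70. It turned without healthy 1 for Cd3d to Cd3e and Syk to Zap70, without healthy 3 for Syk and Tyrobp to Hcst, and without AML 2 for Tyrobp to Hcst. Fcer1g to Cd247 and Lck to Zap70 kept their direction under all 10 alternatives for ratios.

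The labels do not say that equal numbers pair libraries, and deviations from the group means correlated at 0.15, -0.11 and 0.30 for libraries 1, 2 and 3 over 8345 genes. Not every library correlated best with its own number. With the replicate block 0 genes were called, and the log2 fold changes of Cd247 and Cd3g were -0.47 and -0.38.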

Other observations

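Cd28, the costimulatory receptor whose signal adds to that of CD3 in T cells, had 119.9, 32.3 and 30.4 CPM in AML 1 to 3, against 52.5, 66.0 and 67.2 CPM in healthy 1 to 3. AML 1, which had the lowest Cd3d, Cd3e, Cd3g and Cd247 of all 6 libraries, had the highest Cd28. The part of the neutrophil markers of that library in its Cd28 level was not tested. Over the groups its log2 fold change was -0.03. Cd28 was singled out after its values were seen.

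Ubash3a, a suppressor of T cell receptor signals, held a nearly constant level, at 145, 152 and 158 CPM in AML 1 to 3, against 146, 147 and 162 CPM in healthy 1 to 3. Bcl11b, a transcription factor of T cells and ILC2, had 101, 114 and 105 CPM in AML 1 to 3, against 106, 122 and 119 CPM in healthy 1 to 3.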
